A study of Mus musculus with 22 samples.

Results

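The macrophage genes described here were 10 genes, Csf1r, Adgre1, Cx3cr1, Mrc1, C1qa, C1qb, C1qc, Ptprc, Fcgr1 and Cd68, taken by symbol from both gene count tables of a study on heart ventricles of E13.5 mouse embryos. Each of the 10 had a row in both tables, out of 48709 genes that did. RNA was sequenced in 2 experiments with 3 libraries per genotype, 18 libraries in all. The first compared LIN9 wt with LIN9 KO ventricles (6 libraries), and the second compared 4 genotypes (12 libraries): the control (LIN9 wt, Sav1 wt), LIN9 KO, Sav1 KO and the LIN9 Sav1 double KO. All groups, the controls included, carried Nkx2.5-Cre, a recombinase driven from a gene of early heart progenitors, on a C57/Bl6 background. The knockouts carried floxed alleles of Lin9 (exon 7) or Sav1 (exon 3). The labels call the LIN9 wt animals wild-type, while the study describes its LIN9 wt controls as heterozygous, Lin9 fl/+. LIN9 is a subunit of MuvB, a protein complex that controls cell cycle genes, and SAV1 is a scaffold of the Hippo kinase cascade, which restrains the coactivator YAP. For LIN9 KO against LIN9 wt, the study describes the experiments as biological replicates, each done in triplicate. The sources used here do not say whether the 3 libraries of a group came from separate embryos, so the p-values measure only the spread between these libraries, which may be technical.

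Macrophages are phagocytes that enter the embryonic heart from blood progenitors of the yolk sac and the fetal liver and settle in the tissue, where they clear dead cells and debris. Their survival depends on the receptor CSF1R and its ligands CSF1 and IL-34, and the transcription factor PU.1, the product of Spi1, acts on many of their genes. The 10 genes cover that receptor (Csf1r), the surface molecules F4/80 (Adgre1) and fractalkine receptor (Cx3cr1), the mannose receptor CD206 (Mrc1), the 3 chains of the complement starter C1q (C1qa, C1qb and C1qc), the pan-leukocyte phosphatase CD45 (Ptprc), the high-affinity IgG receptor (Fcgr1) and the lysosomal glycoprotein macrosialin (Cd68). Nkx2.5-Cre is directed at heart progenitors, and deletion in the macrophages themselves was not measured here.

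The C1q chains are neighbours on chromosome 4 of mm10, within 18675 bases (chr4:136880129-136898803), all on the minus strand. The other members lay on separate chromosomes: Csf1r on 18, Adgre1 on 17, Cx3cr1 on 9, Mrc1 on 2, Ptprc on 1, Fcgr1 on 3 and Cd68 on 11. Of the exonic length of Csf1r, 15.1% lay under exons of Hmgxb3 on the opposite strand, and of that of Cx3cr1, 1.73% under the antisense gene Gm33858. Strand use in the counting is not stated in the sources used here, so reads there cannot be told apart. The other 8 members had no exonic overlap.

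Promoter windows of 300 bases (250 before to 50 after the gene's start, RefSeq, GRCm38.p6) were at hand for 7 of the 10 genes, 8 windows in all since Ptprc had a pair of them; Csf1r, Adgre1 and C1qa had none. The windows below are shown because C1qb, C1qc and Fcgr1 stood higher in LIN9 KO ventricles with Sav1 wt in both experiments, while Mrc1 did not. Capitals mark the letters GAGGAA, the core of the PU.1 site, or its reverse complement TTCCTC.
C1qb (chr4:136886151-136886450, minus strand): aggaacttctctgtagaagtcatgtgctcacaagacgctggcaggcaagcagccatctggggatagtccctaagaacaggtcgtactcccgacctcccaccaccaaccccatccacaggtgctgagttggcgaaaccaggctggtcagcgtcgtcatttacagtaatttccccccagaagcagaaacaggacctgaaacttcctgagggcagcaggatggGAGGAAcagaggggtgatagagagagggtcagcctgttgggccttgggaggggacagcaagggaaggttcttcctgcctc
C1qc (chr4:136892865-136893164, minus strand): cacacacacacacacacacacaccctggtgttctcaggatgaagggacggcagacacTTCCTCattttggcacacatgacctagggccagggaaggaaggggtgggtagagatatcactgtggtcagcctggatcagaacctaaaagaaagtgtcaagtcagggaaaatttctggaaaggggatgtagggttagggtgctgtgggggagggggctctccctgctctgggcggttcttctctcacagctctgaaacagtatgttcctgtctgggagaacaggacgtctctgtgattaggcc
Fcgr1 (chr3:96293920-96294219, minus strand): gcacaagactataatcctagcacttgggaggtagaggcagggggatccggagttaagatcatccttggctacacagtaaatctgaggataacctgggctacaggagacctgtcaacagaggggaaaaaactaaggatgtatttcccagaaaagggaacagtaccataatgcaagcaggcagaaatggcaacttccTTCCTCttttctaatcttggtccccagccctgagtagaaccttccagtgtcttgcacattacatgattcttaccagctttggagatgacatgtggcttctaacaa
Mrc1 (chr2:14229164-14229463, plus strand): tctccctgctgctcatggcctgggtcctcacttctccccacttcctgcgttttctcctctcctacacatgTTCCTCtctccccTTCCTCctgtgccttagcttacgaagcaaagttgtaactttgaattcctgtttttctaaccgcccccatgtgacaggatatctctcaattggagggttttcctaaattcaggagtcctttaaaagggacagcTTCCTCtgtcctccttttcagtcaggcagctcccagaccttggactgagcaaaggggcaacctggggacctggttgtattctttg

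The PU.1 letters were found in 6 of the 8 windows (C1qb, C1qc, Cd68, Fcgr1, Mrc1 and 1 of the Ptprc windows), and in 28.3% of all 32851 promoter windows of this length, searching both strands. They began at position -30 from the gene start in C1qb, -193 in C1qc and -55 in Fcgr1. TTTGAA (reverse TTCAAA), the cell cycle homology letters bound by MuvB, was found in 3 of the 8 windows, those of Cx3cr1, Mrc1 and Ptprc, against 17.9% of all windows. GGAATG (reverse CATTCC), the TEAD letters through which YAP acts, was in 0 of the 8, against 14.7% of all windows. CATTCC and TTCCTC can share letters, but no matches of different motifs overlapped in these windows. A match describes letters, not a bound site. Mrc1 held the PU.1 letters 3 times.

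Libraries of the first experiment held 9485599 to 9615274 counts and those of the second 2770741 to 2999877, so 1 count stood for about 0.104 and 0.341 CPM, respectively. CPM are counts scaled to a common library size, here with TMM factors, which correct for composition. The members with the fewest reads, Fcgr1 (3 to 4 counts in the second experiment's controls) and Ptprc (9 to 13), were therefore measured with the least precision. As a check of the labels, Lin9 in the first experiment had 29.8, 21.4 and 25.6 CPM in LIN9 wt and 21.4, 21.3 and 19.2 CPM in LIN9 KO (log2 fold change -0.31, adjusted p = 0.130). In the second it was lower in LIN9 KO than in the control (log2 fold change -0.80, adjusted p = 0.0027), and the value in the double KO against Sav1 KO was -0.16 (adjusted p = 0.586). Sav1 was lower in every Sav1 KO library than in any library of the matching Sav1 wt group, by a log2 fold change of -0.50 (adjusted p = 0.317) in the LIN9 wt and -0.23 (adjusted p = 0.465) in the LIN9 KO background. Counts cover the whole gene, of which a single exon is floxed, and 25.4% of the exonic length of Sav1 lies under Atl1 on the opposite strand, so these values are a weak check of the deletion.

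In the control ventricles of the second experiment, the order of the members per length (CPM per kb of exon) was C1qa, C1qb, C1qc, Csf1r, Mrc1, Cd68, Cx3cr1, Adgre1, Fcgr1 and Ptprc. C1qa had 10.5 ± 0.450 and C1qb 9.91 ± 1.47 CPM per kb (SD, n = 3), and their ranges overlapped. From C1qc (5.57 ± 1.28) to Adgre1 (2.67 ± 0.663), each gene overlapped with its neighbour in the order. Fcgr1 (0.481 ± 0.0701) and Ptprc (0.205 ± 0.0400) stood apart from the rest and from each other on this scale, where the level of Ptprc is lowered by its summed exonic length of 18313 bases over all annotated transcripts. In LIN9 wt of the first experiment the C1q chains again led, with C1qb at 9.34 ± 2.01 CPM per kb, and Fcgr1 and Ptprc were again last.

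The first question the design puts is whether these genes differ between LIN9 KO and LIN9 wt ventricles. Of the 10 genes, 9 were higher in LIN9 KO in the first experiment at an adjusted p under 0.05 by edgeR's quasi-likelihood test, against 11.1% of all 19752 genes tested, and Mrc1 alone did not pass. In the second experiment 6 of 10 were higher in LIN9 KO than in the control (12.7% of 17675 genes) and 9 of 10 in the double KO than in Sav1 KO (11.8%). None was lower, whereas 9.78%, 10.5% and 11.6% of all genes were. The LIN9 KO group lay above the LIN9 wt group without overlap for 9, 7 and 9 of the 10, against 18.4%, 18.3% and 21.9% of all genes. The median log2 fold change of the 10 genes was 1.03, 0.87 and 1.35 in that order, beside medians over all genes of 0.02, 0.01 and 0.03. Csf1r, Adgre1, C1qa, C1qb, C1qc and Fcgr1 passed in all 3. The second and the third of these comparisons come from 1 fit, and the first has libraries of its own. The first count depended on single libraries. Over 6 fits that each left out 1 library, Cx3cr1, Ptprc, Cd68 and Fcgr1 lost their call in 4, 3, 3 and 2 fits. The lowest count came without replicate 1 of LIN9 wt, where it fell from 9 to 5, Csf1r, Adgre1 and the C1q chains. Without replicate 3 of the double KO, the third count was 6 instead of 9.

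**Figure D1:**
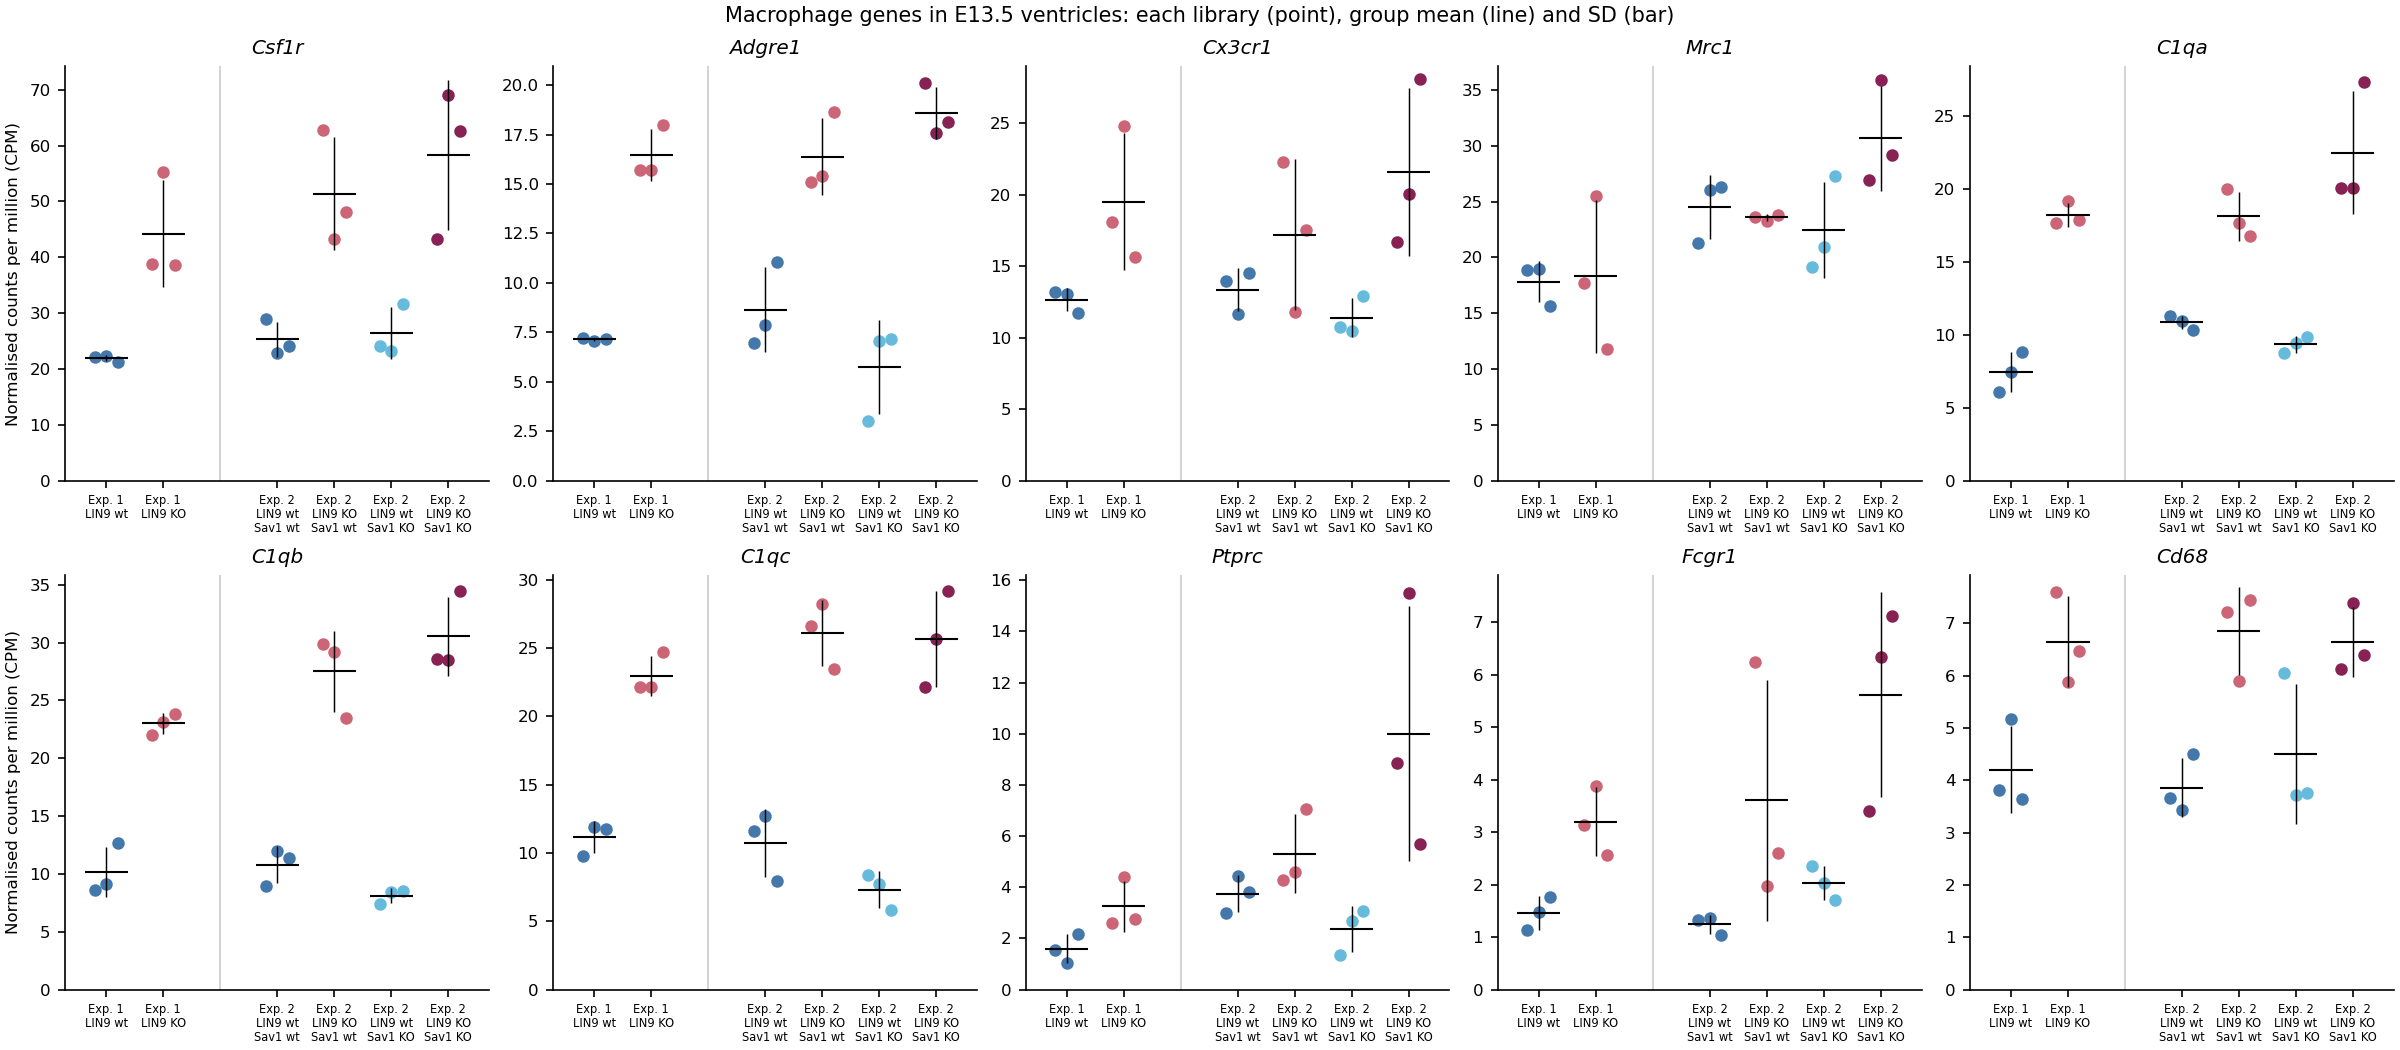
CPM (vertical axes, starting at 0) of the 10 macrophage genes in each of 18 libraries (points) by genotype, with the group mean (horizontal line) and SD (vertical bar), n = 3 libraries per group. For Csf1r, Adgre1 and the 3 C1q genes every LIN9 KO library lies above every LIN9 wt library of its experiment, whereas the groups of Mrc1 overlap.

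Csf1r, the receptor that macrophages need to survive, was about 2-fold higher in LIN9 KO in all 3 comparisons. In the first experiment it had 22.2, 22.3 and 21.3 CPM in LIN9 wt and 38.8, 55.3 and 38.6 CPM in LIN9 KO (log2 fold change 1.01 ± 0.14 SE, adjusted p = 0.00014). The second experiment gave 28.9, 22.9 and 24.2 CPM in the control and 62.7, 43.3 and 48.1 CPM in LIN9 KO (1.02 ± 0.18, adjusted p = 0.00024). Sav1 KO had 24.2, 23.3 and 31.7 CPM and the double KO 43.3, 69.0 and 62.6 CPM (1.14 ± 0.18, adjusted p = 5.8e-05). No LIN9 KO library came down to the level of a LIN9 wt library, and the spread was wider among LIN9 KO libraries.

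Adgre1, which encodes the classical mouse macrophage antigen F4/80, followed the same course. LIN9 wt libraries of the first experiment had 7.21, 7.06 and 7.17 CPM and LIN9 KO libraries 15.7, 15.7 and 18 CPM (log2 fold change 1.20 ± 0.15 SE, adjusted p = 5.3e-05). In the second, the control had 6.98, 7.87 and 11.1 CPM and LIN9 KO 15.1, 15.4 and 18.6 CPM (0.92 ± 0.24, adjusted p = 0.0053). The widest gap was in the Sav1-deleted ventricles, from 3.03, 7.09 and 7.16 CPM in Sav1 KO to 20.1, 17.6 and 18.1 CPM in the double KO (1.69 ± 0.25, adjusted p = 1.2e-05). One Sav1 KO library, replicate 1, had 9 counts of Adgre1 and lay below all others.

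Cx3cr1, the receptor for the membrane-bound chemokine fractalkine, differed less. It had 13.2, 13.1 and 11.7 CPM in LIN9 wt and 18.1, 24.8 and 15.6 CPM in LIN9 KO of the first experiment (log2 fold change 0.62 ± 0.17 SE, adjusted p = 0.016), a call that was lost without LIN9 KO replicate 2 and without any 1 of the LIN9 wt libraries (adjusted p between 0.051 and 0.087). In the second experiment LIN9 KO, with 22.3, 11.8 and 17.5 CPM, overlapped the control with 14.0, 11.6 and 14.5 CPM (0.36 ± 0.23, adjusted p = 0.283). The double KO, with 16.7, 20.1 and 28.1 CPM, lay above Sav1 KO, with 10.8, 10.5 and 13 CPM (0.92 ± 0.23, adjusted p = 0.0035; 0.054 without double KO replicate 3). Cx3cl1, the gene of its ligand, was lower in LIN9 KO of the first experiment (log2 fold change -0.70, adjusted p = 0.0057) and in the double KO against Sav1 KO (-0.63, adjusted p = 0.035), and had -0.34 (adjusted p = 0.288) in LIN9 KO against control. Other chemokine genes went the other way. Of 6 listed and tested in both experiments, 1 was higher in the first experiment (11.1% of all genes tested). In LIN9 KO against control 2 were higher (12.7%), and in the double KO against Sav1 KO also 2 (11.8%). Ccl7 passed in all 3, with log2 fold changes of 1.60, 2.51 and 4.07, at means of 1.82 and 1.85 CPM in the first and second experiment.

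The C1q chains form the recognition molecule of the classical complement pathway and are made mainly by macrophages. C1qa had 6.08, 7.48 and 8.83 CPM in LIN9 wt and 17.7, 19.2 and 17.9 CPM in LIN9 KO of the first experiment (log2 fold change 1.29 ± 0.16 SE, adjusted p = 5.5e-05), the highest fold change of the members there. For C1qb the values were 8.65, 9.17 and 12.7 against 22.0, 23.2 and 23.9 CPM (1.18 ± 0.16, adjusted p = 9.4e-05). C1qc had 9.78, 11.9 and 11.7 against 22.1, 22.1 and 24.7 CPM (1.04 ± 0.14, adjusted p = 9.5e-05). All 3 chains thus lay above 17 CPM in every LIN9 KO library and below 13 CPM in every LIN9 wt library of that experiment.

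In the second experiment C1qb rose from 8.97, 12 and 11.4 CPM in the control to 29.9, 29.2 and 23.5 CPM in LIN9 KO (log2 fold change 1.35 ± 0.18 SE, adjusted p = 2.66e-06). C1qc went from 11.6, 12.7 and 7.95 to 26.6, 28.2 and 23.5 CPM (1.28 ± 0.20, adjusted p = 1.6e-05), and C1qa from 11.3, 11 and 10.4 to 20.0, 17.7 and 16.8 CPM (0.74 ± 0.20, adjusted p = 0.0059). The groups did not overlap for any chain. With Sav1 deleted, C1qb had 7.40, 8.44 and 8.52 CPM in Sav1 KO and 28.6, 28.5 and 34.5 CPM in the double KO (1.91 ± 0.19, adjusted p = 1.9e-08). C1qc had 8.41, 7.76 and 5.80 against 22.1, 25.7 and 29.2 CPM (1.80 ± 0.21, adjusted p = 2.8e-07). C1qa had 8.74, 9.45 and 9.89 against 20.1, 20.1 and 27.4 CPM (1.26 ± 0.20, adjusted p = 1.9e-05). Again every double KO library was above every Sav1 KO library.

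Ptprc, the CD45 gene expressed on all leukocytes, and Fcgr1, the high-affinity IgG receptor CD64, were low and variable. In the first experiment Ptprc had 1.54, 1.05 and 2.18 CPM in LIN9 wt and 2.60, 4.40 and 2.78 CPM in LIN9 KO (log2 fold change 1.03 ± 0.32 SE, adjusted p = 0.032; 0.078 with DESeq2, and 0.103 to 0.153 without LIN9 KO replicate 2, LIN9 wt replicate 1 or LIN9 wt replicate 2). In the second, LIN9 KO with 4.27, 4.59 and 7.08 CPM overlapped the control with 2.99, 4.45 and 3.80 CPM (0.49 ± 0.39, adjusted p = 0.424). The double KO, with 8.86, 15.5 and 5.69 CPM, stood above Sav1 KO, with 1.35, 2.70 and 3.07 CPM (2.06 ± 0.38, adjusted p = 0.0002). That was the largest fold change of any of the 10 genes in these comparisons, and it rested on 4 to 9 counts in the Sav1 KO libraries.

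Fcgr1 had 1.13, 1.48 and 1.77 CPM in LIN9 wt and 3.14, 3.88 and 2.57 CPM in LIN9 KO of the first experiment (log2 fold change 1.13 ± 0.29 SE, adjusted p = 0.011). In the second experiment it had 1.33, 1.37 and 1.04 CPM in the control and 6.24, 1.97 and 2.61 CPM in LIN9 KO (1.51 ± 0.52, adjusted p = 0.033). Replicate 1 of LIN9 KO carried much of that value: without it the log2 fold change was 0.83 (adjusted p = 0.344), and leaving out any 1 of the control libraries also ended the call (adjusted p between 0.069 and 0.103), as did DESeq2 (0.101) and a fit on these 6 libraries alone (0.064). Between Sav1 KO, with 2.35, 2.02 and 1.70 CPM, and the double KO, with 3.41, 6.34 and 7.11 CPM, the log2 fold change was 1.44 ± 0.43 (adjusted p = 0.014; 0.066 with DESeq2). It was lost without double KO replicate 2 or 3 or Sav1 KO replicate 3 (adjusted p between 0.060 and 0.079). The first experiment's call was likewise lost without LIN9 KO replicate 2 (0.053) or LIN9 wt replicate 1 (0.062).

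Cd68, a lysosomal protein of phagocytes that other cells also express, had 3.81, 5.16 and 3.64 CPM in LIN9 wt and 7.59, 5.87 and 6.48 CPM in LIN9 KO of the first experiment (log2 fold change 0.66 ± 0.21 SE, adjusted p = 0.036; 0.095 with DESeq2, and 0.130 to 0.140 without LIN9 KO replicate 1, LIN9 wt replicate 1 or LIN9 wt replicate 3). In the second, the control had 3.65, 3.42 and 4.49 CPM and LIN9 KO 7.22, 5.90 and 7.45 CPM, groups that did not overlap but whose difference missed the threshold (0.82 ± 0.31, adjusted p = 0.052). Sav1 KO had 6.05, 3.71 and 3.75 CPM and the double KO 6.13, 7.39 and 6.40 CPM (0.55 ± 0.30, adjusted p = 0.193).

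Mrc1, the mannose receptor CD206 of tissue-resident and alternatively activated macrophages, which sinusoidal and lymphatic endothelial cells also express, did not follow the others. Its CPM were 18.8, 19.0 and 15.7 in LIN9 wt and 17.7, 25.5 and 11.8 in LIN9 KO of the first experiment (log2 fold change 0.04, 95% confidence interval -0.48 to 0.56). In the second experiment they were 21.3, 26.0 and 26.3 in the control and 23.6, 23.3 and 23.8 in LIN9 KO (-0.05, interval -0.40 to 0.29). The double KO, with 26.9, 35.9 and 29.2 CPM, overlapped Sav1 KO, with 19.2, 20.9 and 27.3 CPM, and the difference passed narrowly (0.45 ± 0.16 SE, adjusted p = 0.046). That call was lost with DESeq2 (0.144), with the haemoglobin genes left out (0.053), and without double KO replicate 2 or 3 or Sav1 KO replicate 1 or 2 (0.076 to 0.297).

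**Figure D2:**
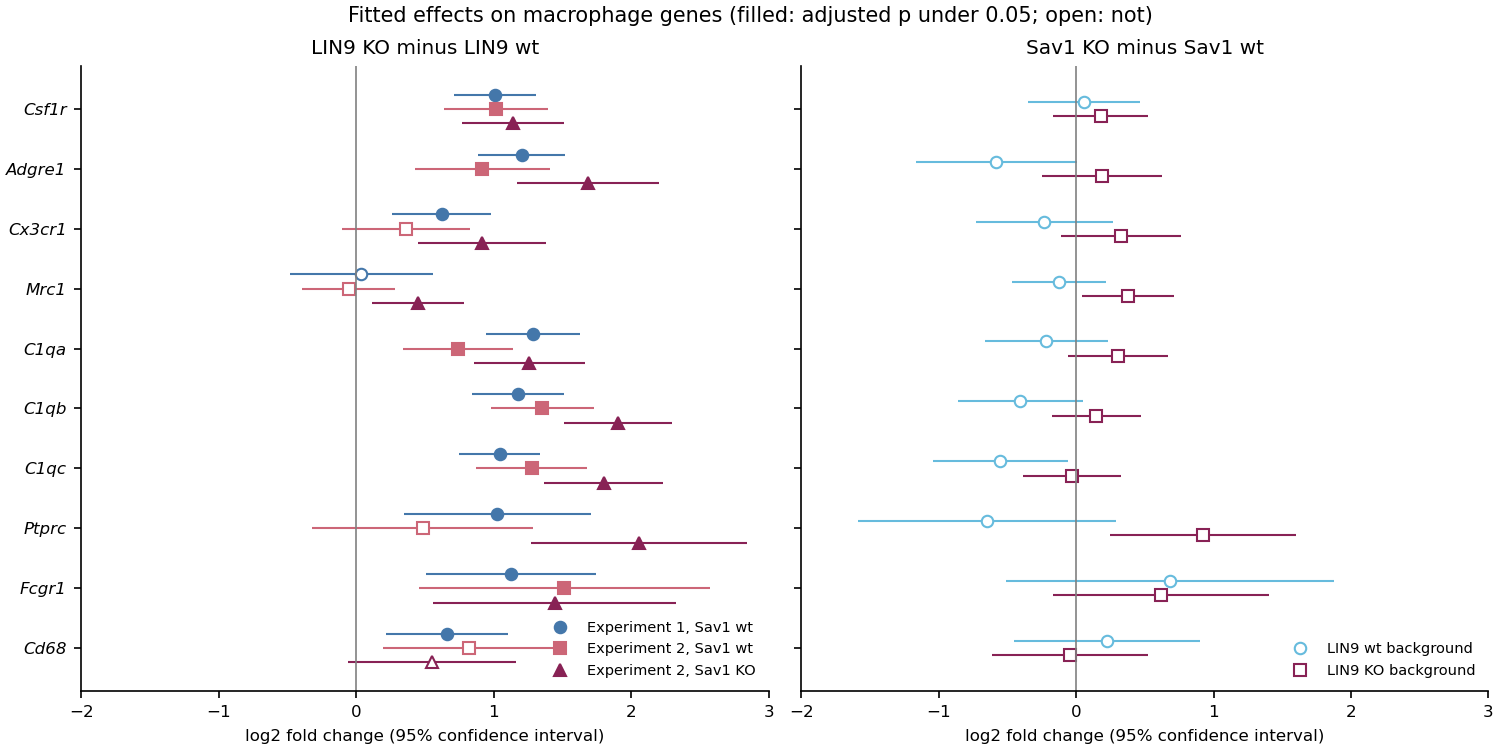
Fitted log2 fold changes (horizontal axes) of the 10 macrophage genes with 95% confidence intervals, for LIN9 KO minus LIN9 wt (left, 3 comparisons) and Sav1 KO minus Sav1 wt (right, in each LIN9 background); filled symbols have an adjusted p under 0.05. All filled symbols are on the left and above 0, and Mrc1 is near 0 in both comparisons made with wild-type Sav1.

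The levels of the other members relative to Csf1r in the same library also show this divergence. These ratios were taken from log2 CPM with a prior count of 2 added, which draws ratios of low genes towards 0. The log2 ratio of Mrc1 to Csf1r was between -0.44 and -0.23 in LIN9 wt and between -1.69 and -1.11 in LIN9 KO of the first experiment. In the second it was between -0.43 and 0.18 in the control, -1.38 and -0.88 in LIN9 KO, -0.33 and -0.15 in Sav1 KO, and -1.08 and -0.67 in the double KO. In each of the 3 comparisons the groups did not overlap. The ratio of C1qa to Csf1r was between -1.84 and -1.25 in LIN9 wt and between -1.52 and -1.10 in LIN9 KO of the first experiment, and these overlapped, as they did in both comparisons of the second. The ratios of C1qb and C1qc overlapped in the first experiment and in LIN9 KO against control, but were higher in the double KO, between -1.25 and -0.58 for C1qb and between -1.40 and -0.95 for C1qc, than in Sav1 KO, between -1.81 and -1.39 and between -2.32 and -1.45. The Cx3cr1 ratio was lower in LIN9 KO, between -1.29 and -1.09, than in LIN9 wt, between -0.85 and -0.75, in the first experiment. It was also lower in LIN9 KO, between -1.82 and -1.42, than in the control, between -1.02 and -0.71, and overlapped between Sav1 KO and the double KO. Over the 18 libraries, the correlation of each gene with the mean of the other 9 was between 0.76 and 0.95 except for Mrc1, where it was 0.38. These correlations describe libraries that share genotype and experiment and carry no test.

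**Figure D3:**
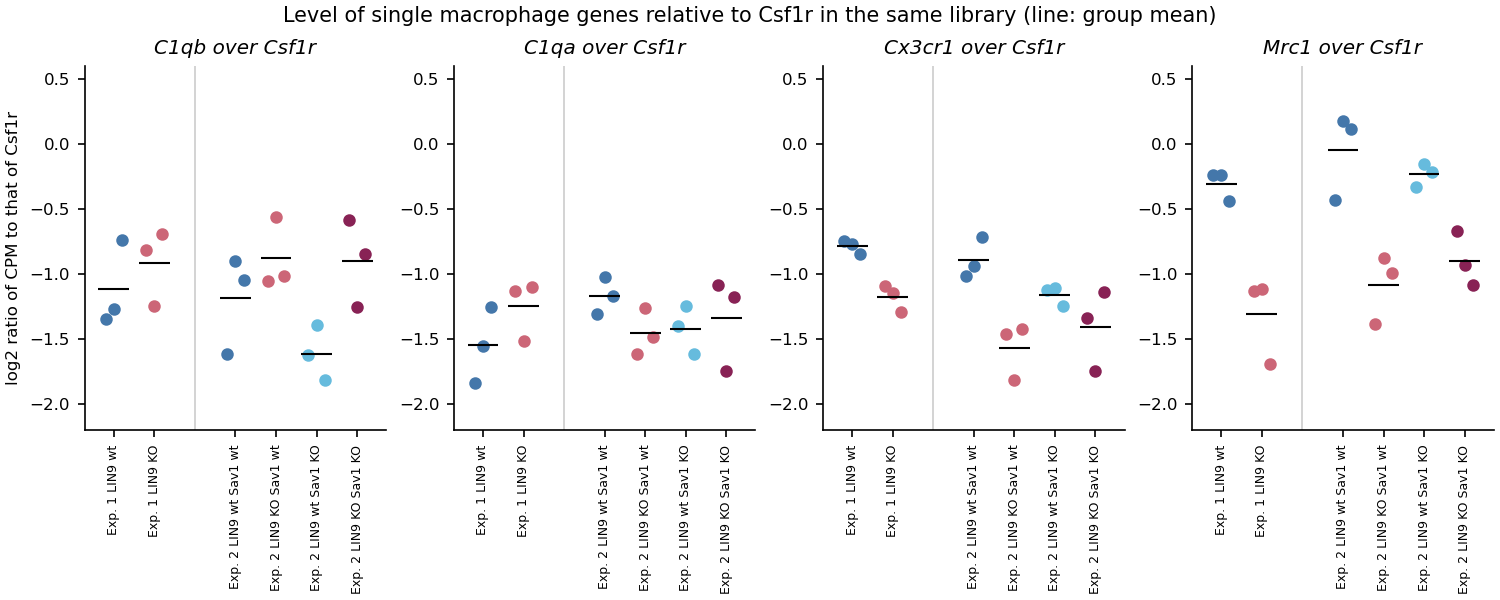
Log2 ratio of the CPM (with a prior count of 2 added) of C1qb, C1qa, Cx3cr1 and Mrc1 to that of Csf1r in the same library (points), by genotype. The group mean is a line. The Mrc1 ratio is lower in every LIN9 KO library than in any LIN9 wt library of its experiment, while those of C1qb and C1qa overlap between LIN9 wt and LIN9 KO in the first experiment. In the second, the C1qb ratio is higher in the double KO than in Sav1 KO.

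The second question is what Sav1 deletion does in each LIN9 background. By edgeR's test, 0 of the 10 genes passed in the LIN9 wt background (0.0170% of all genes did) and 0 in the LIN9 KO background (0.0113%); DESeq2 also called 0 in both. At an unadjusted p under 0.05 there was 1 of 10 in the LIN9 wt background (C1qc), against 3.93% of all genes, and 2 of 10 in the LIN9 KO background (Ptprc and Mrc1), against 11.8%. In the LIN9 wt background 7 of 10 fitted values were negative, with a median of -0.22, and in the LIN9 KO background 8 of 10 were positive, with a median of 0.25; the medians over all genes were near 0 (7.97e-05 and 0.0013).

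Among single genes in the LIN9 wt background, C1qa (10.4 to 11.3 CPM in the control, 8.74 to 9.89 in Sav1 KO) and C1qb (8.97 to 12 against 7.40 to 8.52) did not overlap between the groups and lay lower in Sav1 KO, 2 of 10 genes against 6.14% of all genes. Fcgr1 lay higher without overlap (1.04 to 1.37 against 1.70 to 2.35 CPM), 1 of 10 genes against 5.97%, and these are 3 to 4 against 5 to 7 counts. The log2 fold change was -0.55 for C1qc (interval -1.04 to -0.06, adjusted p = 0.999), -0.58 for Adgre1 (-1.16 to 0.00) and 0.06 for Csf1r (-0.35 to 0.46). A doubling or halving of Csf1r, a log2 change of 1, lies outside its interval, whereas for Ptprc (-1.59 to 0.29) and Fcgr1 (-0.51 to 1.87) a change of that size lies inside.

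In the LIN9 KO background, Ptprc had 4.27, 4.59 and 7.08 CPM in LIN9 KO and 8.86, 15.5 and 5.69 CPM in the double KO, an overlapping pair (log2 fold change 0.92, interval 0.25 to 1.60, adjusted p = 0.244). Mrc1 (23.3 to 23.8 against 26.9 to 35.9 CPM) and C1qa (16.8 to 20.0 against 20.1 to 27.4) did not overlap and lay higher in the double KO, 2 of 10 genes against 7.20% of all genes, with log2 fold changes of 0.38 (0.05 to 0.71) and 0.30 (-0.06 to 0.67). Csf1r gave 0.18 (-0.17 to 0.52), C1qb 0.15 (-0.18 to 0.47) and C1qc -0.03 (-0.38 to 0.33).

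The interaction, the Sav1 effect in the LIN9 KO minus that in the LIN9 wt background, tests the difference between these backgrounds. It passed for 0 of the 10 genes (0% of all genes with edgeR, and 0 of the 10 with DESeq2), with 3 of 10 (Ptprc, Adgre1 and Mrc1) at an unadjusted p under 0.05 against 6.52% of all genes. The fitted interaction was positive for 8 of 10, with a median of 0.52, beside -0.00054 over all genes. It was 1.57 (interval 0.42 to 2.73, adjusted p = 0.680) for Ptprc, 0.77 (adjusted p = 0.758) for Adgre1, 0.55 (-0.01 to 1.11) for C1qb and 0.12 (-0.41 to 0.66) for Csf1r. The same term is the LIN9 effect with Sav1 deleted minus that with Sav1 present, so the larger LIN9 effects seen for Ptprc and the C1q chains in Sav1-deleted ventricles were not separated from those with Sav1 present.

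Genes of the CSF1R pathway gave a mixed picture, in a list of 12 of which 11 could be tested. In LIN9 KO, 6, 6 and 5 of 11 were higher in the 3 comparisons and none lower. Of all genes tested, 11.1%, 12.7% and 11.8% were higher and 9.78%, 10.5% and 11.6% lower. Csf1, the ligand of the receptor, rose from between 15.4 and 17.8 to between 35.3 and 38.9 CPM in the first experiment (log2 fold change 1.16, adjusted p = 9.9e-06). In the second it was between 14.0 and 25.2 CPM in the control and 33.2 and 54.4 CPM in LIN9 KO (1.33, adjusted p = 0.0034), and between 14.5 and 17.4 CPM in Sav1 KO and 28.3 and 51.9 CPM in the double KO (1.37, adjusted p = 0.0035). The other ligand, Il34, stayed at 1.49 CPM or less in all 18 libraries, with no call. Spi1, which encodes PU.1, passed once (0.50 with adjusted p = 0.158, 1.04 with 0.023, and 0.95 with 0.069), whereas Maf, Cebpa and Id3 passed in all 3.

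Other genes of myeloid cells moved with the members. In a list of 18 myeloid genes, 13 of 17 tested were higher in LIN9 KO of the first experiment, and 12 of 16 in each comparison of the second. The shares of all genes tested that were higher were 11.1%, 12.7% and 11.8%. Ctss, a lysosomal cysteine protease, had log2 fold changes of 1.42, 1.63 and 1.93, Tyrobp, an adaptor of activating receptors, 1.05, 1.68 and 1.08, and Lyz2, lysozyme, 0.95, 1.11 and 1.62, and all of these passed. Of the 4 further Fc receptor genes, 4, 4 and 3 were higher, Fcgr3 by 1.45, 1.88 and 1.53. Of 9 tested complement genes outside C1q, 5 were higher in each comparison. These 5 passed in all 3, among them C3, Serping1, Masp1 and Cd55. Both lists stand beside the same 11.1%, 12.7% and 11.8% of all genes that were higher.

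Of 14 tested markers of resident heart macrophages, 4, 7 and 6 were higher and none lower, beside 11.1%, 12.7% and 11.8% of all genes tested that were higher. F13a1, Lgmn and Ctsc passed in all 3, F13a1 by 0.53, 0.82 and 0.88. Trem2, a lipid-sensing receptor of macrophages, had log2 fold changes of 1.16, 1.17 and 0.85, of which the first pair passed. Siglec1, a sialic acid-binding receptor of macrophages, had 0.71, 2.48 and 1.74 and passed in both comparisons of the second experiment, as did Stab1 (0.56 and 0.68) and Mertk (0.51 and 0.54). Lyve1, which marks a resident macrophage subset and lymphatic endothelium, and Folr2, a folate receptor of resident macrophages, passed in none: Lyve1 had -0.55, -0.40 and -0.43, and Folr2 -0.09, 0.21 and -0.53. Cd163, another marker of that kind, had at most 2 counts in any library. None of the genes in these lists passed for Sav1 deletion or for the interaction.

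The sum of the 10 members was between 92.5 and 97.7 CPM in LIN9 wt and between 162 and 200 CPM in LIN9 KO of the first experiment. In the second it was between 111 and 115 CPM in the control, 181 and 218 in LIN9 KO, 91.5 and 112 in Sav1 KO and 196 and 248 in the double KO. In bulk RNA, more cells of a type and more RNA per cell cannot be told apart, nor can a loss of other RNA that raises the share of what remains.

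Markers of other cell types moved with the same contrast. The sum of 9 cardiomyocyte genes was between 21438 and 22348 CPM in LIN9 wt and between 9901 and 13460 CPM in LIN9 KO of the first experiment, and between 22627 and 24978 CPM in LIN9 wt and 10666 and 13490 CPM in LIN9 KO libraries of the second, with 7 of 9 genes lower in each comparison. Fibroblast genes were higher in 9, 9 and 10 of 10, epicardial genes in 7 of 8 each time and erythroid genes in 10, 11 and 10 of 11. The erythroid sum went from between 4312 and 6317 to between 24105 and 62999 CPM in the first experiment, and it varied more between LIN9 KO libraries than the member sum did, 2.61-fold against 1.23-fold. With the haemoglobin genes removed from the libraries, 9, 6 and 8 members passed. Of 10 endothelial genes, 2, 2 and 4 were higher and 1, 1 and 2 lower, beside 11.1%, 12.7% and 11.8% higher and 9.78%, 10.5% and 11.6% lower of all genes tested.

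Among other blood cells, megakaryocyte genes were higher in 6, 3 and 1 of 8, and granulocyte and mast cell genes in 4 of 9, 3 of 8 and 3 of 8, at a summed level of no more than 13.4 CPM. Monocyte and dendritic cell genes passed in 2 of 6, 0 of 4 and 1 of 4. Over all genes tested, 11.1%, 12.7% and 11.8% were higher, so counts such as 1 of 8, 0 of 4 and 1 of 4 are near that background. Lymphoid genes were near 0: 4 of 10 could be tested in the first experiment and 1 in the second, none passed, and their sum was at most 1.30 CPM. Several genes were at 0 in all 18 libraries, among them Cd3e and Irf8. The same was true of Actc1, the cardiac actin gene, and Alas2, a haem synthesis gene of erythroid cells, so a 0 in these tables does not show that a gene is silent. The part of these cell types in the member values was not tested.

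**Figure D4:**
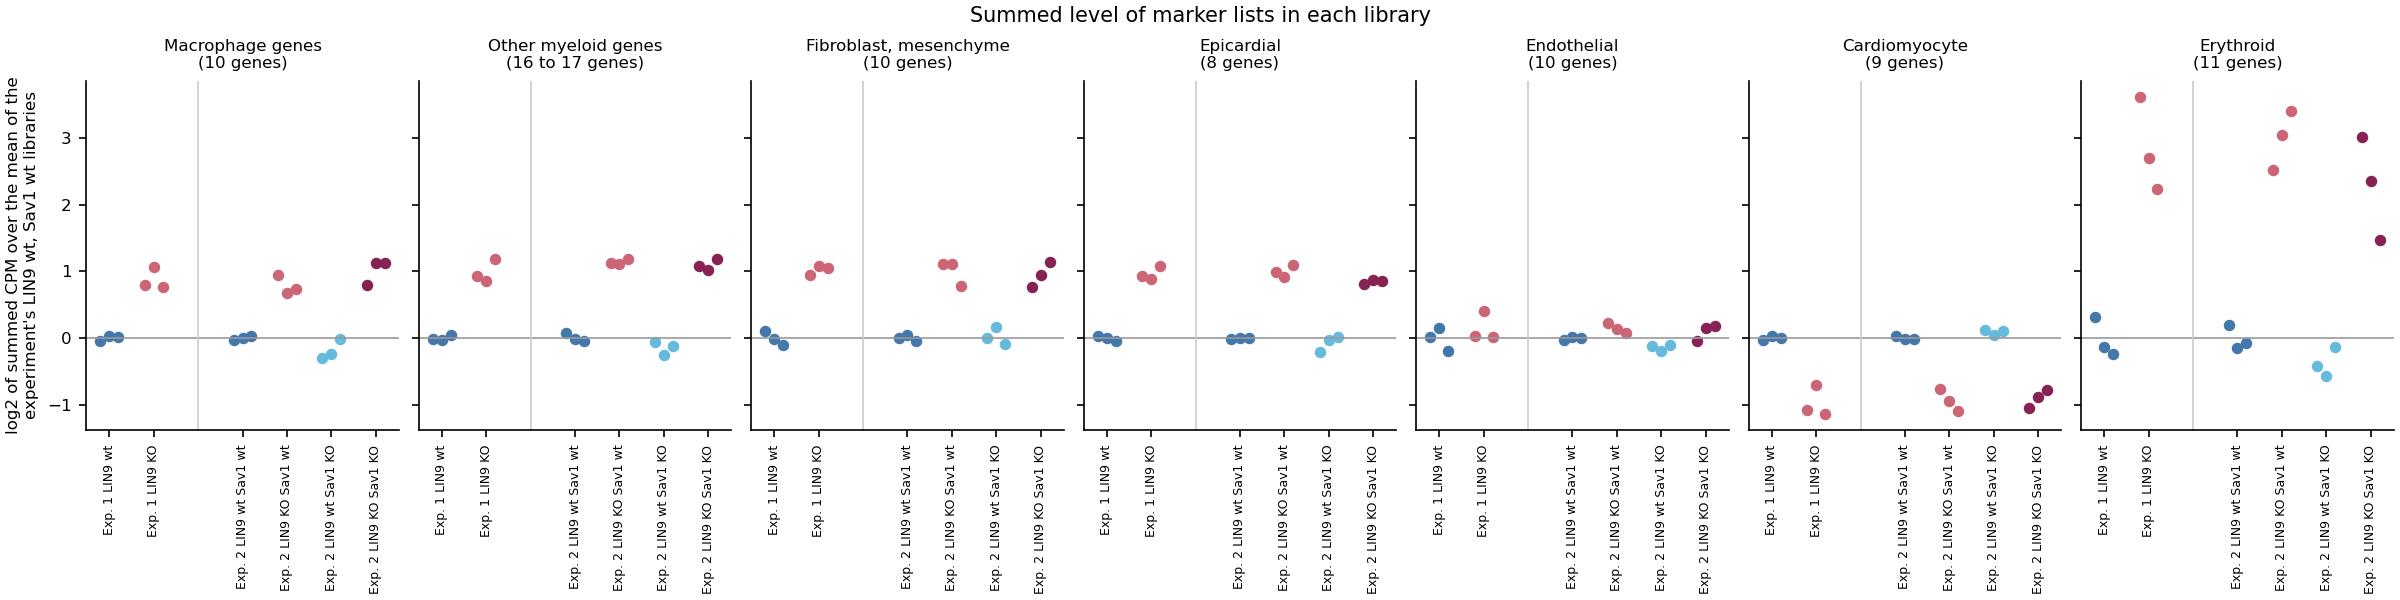
Log2 of the summed CPM of 7 gene lists in each library (points) relative to the mean of the LIN9 wt, Sav1 wt libraries of the same experiment. Macrophage, myeloid, fibroblast and epicardial sums lie higher in all LIN9 KO libraries and the cardiomyocyte sum lower, while the erythroid sum is the most spread among LIN9 KO libraries.

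The 10 genes whose levels were most like the mean of the members over the 18 libraries, out of 15223 genes ranked by Pearson correlation, were 9030617O03Rik (0.978), Fndc3b, Prss23, Serinc3, Hdac7, Kdelr3, H13, Adcyap1r1, Itgav and Ccng1 (0.959). None of them was on a macrophage or myeloid list. Within the lists, the highest correlation with the members was 0.939 for Vwf among megakaryocyte genes, 0.937 for Masp1 among complement genes, 0.935 for Pdgfra among fibroblast genes, 0.926 for Wt1 among epicardial genes and 0.924 for Ctss among myeloid genes. Vwf stood apart from its list, since the median over the 7 megakaryocyte genes was 0.357. List medians were 0.891 for Fc receptor, 0.890 for epicardial, 0.872 for complement and 0.855 for erythroid genes. They were 0.845 for fibroblast, 0.825 for myeloid and 0.806 for resident macrophage genes. All 10 of the most similar genes had positive fitted values in the 3 LIN9 comparisons, between 0.28 and 1.81, and the 18 libraries share genotypes and experiments, so these correlations carry no test.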

How the data were processed

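RNA-seq of 18 ventricle libraries was analysed. The 4 ChIP samples were not analysed here. The deposited counts are whole reads per Ensembl gene: the authors mapped reads with TopHat2 2.1.0 and Bowtie2 to mm10, reduced all libraries to the smallest and counted with summarizeOverlaps, with the overlap mode and strand not given in the sources used here. The authors' own comparison tables (log2 fold changes, log2 CPM, p-values) were not used. Identifiers listed more than once (4 per table, identical counts) were kept once. Genes with a mean count over 1 were normalised by TMM and tested with edgeR 4.0.16 in R 4.3.3 (quasi-likelihood, robust, Benjamini-Hochberg over all genes tested, threshold 0.05), with the 12 libraries of the second experiment in 1 fit. The edgeR code was tested on simulated data. Promoter letters were counted in RefSeq windows, and gene lengths came from GENCODE. The members and lists were chosen with earlier results of these data known. The text names all 10 members, Lin9 and Sav1, and from other lists genes past the threshold with non-overlapping groups, a mean of at least 5 CPM and the largest fold changes (up to 3 per list and comparison), the CSF1R ligands and Spi1, and the 10 genes most like the members. Genes named outside that rule, such as C3, Ccl7, Lyz2, Cebpa, Trem2, Siglec1, Mertk, Lyve1, Folr2, Cd163, Cd3e, Irf8, Actc1 and Alas2, were chosen after their values were seen. Same-numbered replicates deviated together (every correlation over 0.1, from the data and not the labels) between control and LIN9 KO (0.257 to 0.637), control and Sav1 KO (0.102 to 0.330) and LIN9 KO and Sav1 KO (0.116 to 0.358), and not in the first experiment or with the double KO. Libraries of a group differed beyond counting noise (chi-square per degree of freedom 1.20 to 24.1). Alternatives were other size factors, DESeq2 1.42.0, other filters, no robust estimates, a replicate block, haemoglobin genes left out and each library left out in turn.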

Additional observations from a re-analysis of the deposited data

How the results depend on the processing

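Of 60 gene results (10 members in 6 comparisons) recomputed under 940 gene and setting combinations, 890 kept direction and side of the threshold, 31 lost a call, 2 gained one and 17 changed sign. Of the 24 calls, 16 held under every setting run. The counts of members called ranged over single left-out libraries from 5 to 9 in the first experiment, from 5 to 6 in LIN9 KO against control and from 6 to 9 in the double KO against Sav1 KO, and they were 0 for Sav1 deletion and the interaction throughout. The medians ranged from 0.89 to 1.15, from 0.77 to 0.96 and from 1.15 to 1.45. With the replicate block the counts were 9, 6 and 9, and pairing by replicate number changed no call. It turned the log2 fold change of Mrc1 in the first experiment to -0.0029. Cd68 in LIN9 KO against control passed with filterByExpr (adjusted p = 0.041) and without robust estimates (0.045). With single libraries left out, sign changes came only from values that had not passed. Mrc1 in the first experiment ranged from -0.28 to 0.28. The interaction ranged from -0.39 to 0.033 for Cd68, from -0.011 to 0.31 for Csf1r and from -0.36 to 0.62 for Fcgr1. With LIN9 deleted, the change upon Sav1 loss ranged from -0.13 to 0.060 for C1qc and from -0.13 to 0.011 for Cd68, and with LIN9 present from -0.057 to 0.34 for Cd68 and from -0.095 to 0.17 for Csf1r. The cause was not tested. Depth limits Fcgr1 and Ptprc most, which had at most 13 counts in LIN9 wt libraries of the second experiment.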
